A study of Danio rerio with 6 samples.

Results

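Transcripts of 10 circadian clock genes were compared between the hindbrain of *gas6* mutant zebrafish embryos and of wildtype (WT) embryos. The genes were taken by name: *per1a*, *per1b*, *per2*, *per3*, *nr1d1*, *nr1d2a*, *nr1d2b*, *tefa*, *tefb* and *arntl1a*. All 10 were among the 23025 genes of the deposited table, and all 10 had enough counts to be among the 20463 genes tested. The question put to these genes was whether the 2 genotypes look as if they had been collected at the same time of day.

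Hindbrains were dissected from embryos at 48 hours post fertilization (hpf), with fluorescence of the *olig2:EGFP* transgene as the guide, and RNA from pools of hindbrains was made into 3 stranded mRNA libraries per genotype. The controls were *Tg(olig2:EGFP)vu12* embryos, and the mutants came from a homozygous *gas6* mutant line into which this transgene had been crossed. Both genotypes thus carried the transgene, and both had been raised at 28°C. As they came from different lines, a difference of line or parents cannot be told apart from one of genotype. Whether the genotypes were collected together is not given in the sources used here. The *gas6* lesions (um296, um297, um298 and um299) are small deletions made with CRISPR/Cas9 at the start codon and all descend from 1 founder, and which of them the sequenced embryos carried is not given in the sources used here. The hour of collection and the lighting regime are not given either, and nothing states that the libraries of a genotype came from separate clutches, so the p-values below measure the spread between libraries, which may be technical.

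The clock is a feedback loop of transcription. Clock and Bmal proteins (Bmal is encoded by the *arntl* genes) switch on the *per*, *cry* and *nr1d* genes, Per and Cry proteins then block Clock and Bmal, and the Nr1d (Rev-erb) repressors and Ror activators compete at the promoters of *arntl* genes, so that *arntl* transcripts and *per* or *nr1d* transcripts peak at different hours. Zebrafish are known for clocks in most tissues that light sets directly, partly through light-induced transcription of *per2* and *cry1a*, and the PAR bZIP factors Tef, Hlf and Dbp relay the rhythm and the light signal through D-box promoter elements.

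Libraries held between 18376627 (mutant library 1) and 27025868 (mutant library 3) estimated counts. Levels are given as CPM, the estimated count relative to the scaled library total, which does not correct for transcript length and is compared here only between libraries. *gas6* itself was at 39.1 ± 3.26 CPM in WT and 5.01 ± 0.674 CPM in mutants (SD, n = 3 each), a log2 fold change of -2.97. Markers of other tissues moved with genotype, and rose or fell is said here and below of genes with an adjusted p-value under 0.05 in edgeR. Sums cover all listed genes in the deposited table, tested or not. All 14 tested lens genes rose. The summed CPM of the 16 lens genes in the table (led by *crybb1* and *crybb1l2*) was 3.23 to 55.9 in WT and 692 to 1627 in mutants. For the pineal list (led by *crx* and *otx5*) it was 13.0 to 16.8 and 66.7 to 105, where 5 of 6 tested genes rose. The mutant means of *crx* and *otx5* were 46.6 and 28.2 CPM, and which tissue their transcripts came from was not tested. *aanat2* of the same list did not rise, at 0.84 CPM in WT and 0.86 CPM in mutants (log2 fold change 0.002). For the photoreceptor list (18 genes, led by *nr2e3* and *rcv1*) the sum was 5.01 to 6.38 and 17.6 to 26.3, where 5 of 9 tested genes rose. The defining genes *rho* and *arr3a* were at 0 in all WT libraries. Forebrain genes (led by *otpa* and *otpb*) summed to 532 to 590 CPM in WT and 652 to 709 in mutants (14 of 22 rose and 1 fell). Neither *otpa* (log2 fold change 0.14, WT mean 221 CPM) nor *otpb* (0.09, WT mean 138 CPM) passed, so much of this sum came from genes not called. The median log2 fold change of the list was 0.80. The genes of hindbrain segment identity (led by *hoxb3a* and *hoxa3a*), all 11 of which in the table were detected, summed to 999 to 1225 and 834 to 932. Of them 7 of 11 fell, but not *hoxb3a* (adjusted p = 0.0679 by edgeR). Of all genes tested, 16.7% rose and 16.6% fell.

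Across the 10 clock genes, *nr1d2a* was higher in mutants while *per2* and *per1b* were lower, and the other 7 did not pass the test. The call was an adjusted p-value under 0.05 in the edgeR quasi-likelihood test, with the Benjamini-Hochberg adjustment over all genes tested. The share of 3 in 10 (30%) stood beside 33.3% of all genes tested (16.7% higher and 16.6% lower in mutants), and so was close to the background. *per2* and *nr1d2a* were also more than 2-fold apart, the criterion of the study, against 9.65% of all genes, and in these same 2 of 10 genes the libraries of the genotypes did not overlap, against 49.0% of all genes. The median log2 fold change of the 10 genes was 0.05, beside 0.02 over all genes tested. In these bulk samples, fewer cells that express a gene and less of its RNA per cell cannot be told apart.

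**Figure D1:**
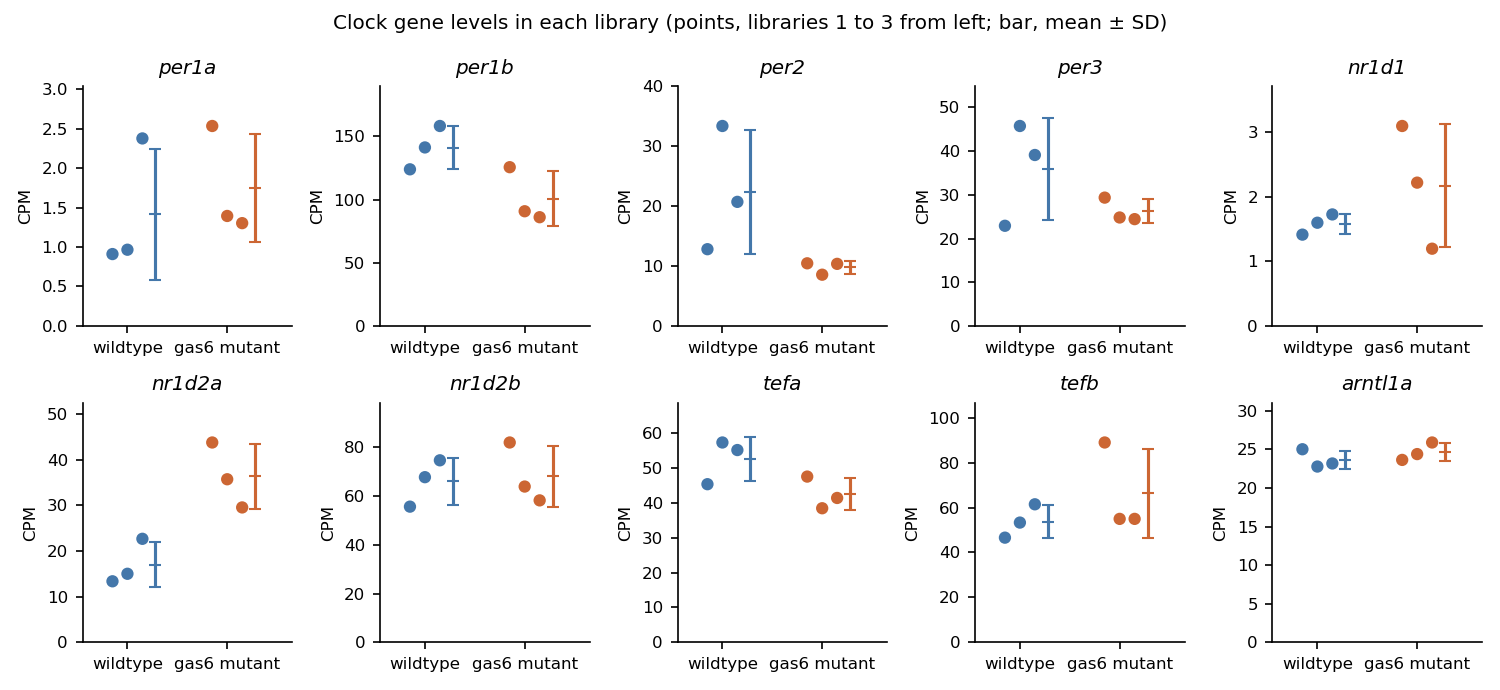
CPM (linear axis from 0, its own for each gene) of the 10 clock genes in each library, with points for libraries 1 to 3 of each genotype from left to right and bars for the mean ± SD (n = 3). The genotypes separate for *per2* and *nr1d2a* and overlap for the other 8 genes.

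The period genes encode the repressor arm of the loop. *per2*, the light-responsive member, was at 12.8, 33.4 and 20.7 CPM in WT libraries 1 to 3 and at 10.4, 8.54 and 10.4 CPM in mutant libraries 1 to 3. Every mutant library was below every WT library, but the WT libraries spanned 2.61-fold among themselves and the lowest of them, library 1, lay closer to the mutants than to WT library 2. The means were 22.3 ± 10.4 and 9.78 ± 1.07 CPM (SD, n = 3 each). The edgeR log2 fold change was -1.19, a fitted level 2.29-fold lower in mutants (SE 0.264, 95% interval -1.77 to -0.62, adjusted p = 0.0049). Without WT library 2 it was -0.79, still past the threshold (adjusted p = 0.0089) but under 2-fold.

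*per1b* was at 124, 141 and 158 CPM in WT and at 126, 90.8 and 86.0 CPM in mutants. Mutant library 1 was within the WT range, and the other mutant libraries were below it. The log2 fold change was -0.49 (SE 0.145, 95% interval -0.80 to -0.17, adjusted p = 0.0223 by edgeR). The call rested on single libraries: the adjusted p was 0.0721 without WT library 3, 0.0993 without mutant library 2 and 0.0887 without mutant library 3.

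*per3* read 22.9, 45.7 and 39.1 CPM in WT and 29.4, 24.8 and 24.4 CPM in mutants, so that WT library 1 was the lowest of all 6 and WT libraries 2 and 3 the highest. Its log2 fold change of -0.46 (SE 0.199, 95% interval -0.89 to -0.02) did not pass (adjusted p = 0.0961). Of the 6 fits that left out 1 library, it passed in 1, that without WT library 1 (-0.71, adjusted p = 0.00129 by edgeR). Values in these fits reached from -0.71 to -0.26, the last without WT library 2 (adjusted p = 0.320).

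*per1a*, the duplicate of *per1b*, had few counts, with 20, 23 and 51 counts in WT and 50, 39 and 36 in mutants (0.911, 0.966 and 2.38 CPM against 2.54, 1.39 and 1.303 CPM). The ranges overlapped, with WT library 3 and mutant library 1 standing above the other 4 libraries. The log2 fold change of 0.28 (SE 0.388, 95% interval -0.57 to 1.12, adjusted p = 0.615) left a wide interval, and its sign turned to -0.061 without mutant library 1.

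The Nr1d proteins are haem-binding repressors that in mammals act on *Bmal1*. *nr1d2a* was at 13.4, 15.04 and 22.7 CPM in WT and at 43.8, 35.7 and 29.6 CPM in mutants. All mutant libraries were above all WT libraries, and the nearest pair was WT library 3 and mutant library 3. The means of 17.0 ± 4.97 and 36.4 ± 7.14 CPM (SD, n = 3 each) were 2.13-fold apart, with a log2 fold change of 1.09 (SE 0.192, 95% interval 0.67 to 1.51, adjusted p = 0.0012). It passed in each of the 6 fits that left out 1 library, with values from 0.94 to 1.34.

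Its duplicate *nr1d2b* was at 55.7, 67.8 and 74.7 CPM in WT and at 82.0, 64.0 and 58.3 CPM in mutants. The ranges overlapped over most of their length, and the log2 fold change was 0.04 (SE 0.142, 95% interval -0.27 to 0.35, adjusted p = 0.848). Its sign turned without WT library 1 (-0.08) or mutant library 1 (-0.11). *nr1d1*, with 31, 38 and 37 counts in WT and 61, 61.85 and 33 estimated counts in mutants, was at 1.41, 1.596 and 1.72 CPM against 3.09, 2.22 and 1.19 CPM. Mutant libraries 1 and 2 were above the WT libraries and mutant library 3 was below them, and the log2 fold change of 0.43 (SE 0.315, 95% interval -0.25 to 1.12) did not pass (adjusted p = 0.315).

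The Tef factors activate genes with D-box elements. *tefa* was at 45.3, 57.2 and 55.0 CPM in WT and at 47.5, 38.4 and 41.3 CPM in mutants, with WT library 1 inside the range of the mutants. The log2 fold change of -0.31 (SE 0.120, 95% interval -0.57 to -0.05) did not pass (adjusted p = 0.0657 by edgeR). Of the 6 fits that left out 1 library, with values from -0.41 to -0.24, it passed in 2. These were without WT library 1 (-0.41, adjusted p = 0.0113) and without mutant library 1 (-0.40, adjusted p = 0.0483). *tefb* was at 46.6, 53.3 and 61.4 CPM in WT and at 88.9, 54.9 and 54.9 CPM in mutants. Mutant library 1 stood above all others while mutant libraries 2 and 3 lay within the WT range, and the log2 fold change was 0.30 (SE 0.176, 95% interval -0.08 to 0.68, adjusted p = 0.212).

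*arntl1a*, which encodes a Bmal activator, varied least. It was at 25.01, 22.8 and 23.2 CPM in WT and at 23.6, 24.4 and 25.9 CPM in mutants. The ranges overlapped, the SD of log2 CPM was 0.07 in each genotype, and the log2 fold change was 0.06 (SE 0.105, 95% interval -0.17 to 0.29, adjusted p = 0.691). The whole interval lies within 2-fold of no change, as do those of *per1b*, *per3*, *nr1d2b*, *tefa* and *tefb*. For *per1a*, *per2*, *nr1d1* and *nr1d2a* it reaches past 2-fold.

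Scaling between libraries drops out when each gene is set against *arntl1a* of the same library. The log2 ratio of *per2* to *arntl1a* was -0.97, 0.55 and -0.16 in WT and -1.18, -1.51 and -1.32 in mutants, a mean difference of -1.14 (mutant minus WT) without overlap. That of *nr1d2a* was -0.90, -0.60 and -0.03 in WT and 0.89, 0.55 and 0.19 in mutants, a difference of 1.05 without overlap. For the other 7 genes the genotypes overlapped, with differences between -0.56 (*per1b*) and 0.32 (*per1a*). In the exact two-sided permutation test, 3 against 3 libraries cannot give a p below 0.1, which *per2* and *nr1d2a* had (0.45 after adjustment over the 9 ratios), and the others lay between 0.2 and 1.

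Duplicated genes were compared within 3 pairs. The log2 ratio of *nr1d2a* to *nr1d2b* was -2.06, -2.17 and -1.72 in WT and -0.91, -0.84 and -0.98 in mutants, and moved by 1.08. That of *per1a* to *per1b* was -7.09, -7.19 and -6.06 in WT and -5.63, -6.02 and -6.05 in mutants, so WT library 3 all but met the mutants, at the low counts of *per1a* given above, and moved by 0.88. That of *tefa* to *tefb* moved by -0.58, from -0.03 ± 0.13 to -0.61 ± 0.26 (SD, n = 3 each). The genotypes did not overlap in any pair, and the exact two-sided permutation p was 0.1, the smallest it can be (0.1 after adjustment over the 3 pairs). With that floor the test cannot show that the copies differ in their change. Of single genes tested, 49.0% did not overlap, and the share among ratios of other gene pairs was not worked out. Copies of a gene can share reads: of these 6 genes *per1b*, *nr1d2a*, *tefa* and *tefb* had a fractional estimated count in 1 or more libraries, as did *per2*, *nr1d1* and *arntl1a*, so their levels are uncertain to the extent that reads were divided between genes. *per1a* and *nr1d2b* had whole counts in all libraries, so the fractions of *per1b* and *nr1d2a* had no counterpart in their duplicates.

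The spread inside each genotype had an order of its own, which was noticed after the values were seen. In WT, library 1 was the lowest of the 3 for 9 of the 10 clock genes and the highest for *arntl1a*. In mutants, library 1 was the highest for the same 9 genes and the lowest for *arntl1a*. The order of *arntl1a* was not that of the 5 further core activator genes described below. Of those, 4 were lowest in WT library 1, none was highest there and none was lowest in mutant library 1. Of all genes tested, 41.2% were lowest in WT library 1, 36.7% were highest in mutant library 1 and 15.1% were both. The 9 and 9 stood under 4 other scalings of the libraries, unscaled totals included.

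Measured from the mean of its own genotype on the log2 scale, the median of the 9 genes other than *arntl1a* was -0.24 in WT library 1, 0.02 in WT library 2 and 0.18 in WT library 3. In mutants it was 0.29, -0.13 and -0.21 for libraries 1 to 3. All 9 genes were above their genotype mean in WT library 3 and in mutant library 1, and none was in WT library 1. *arntl1a* deviated the opposite way to this median in WT libraries 1 to 3 (0.08, -0.05 and -0.03), mutant library 1 (-0.06) and mutant library 3 (0.07), and the same way in mutant library 2 (-0.01). In WT library 1 and mutant library 1 the signs follow from the order given above, for the 9 genes and for *arntl1a*. They add nothing to that order. These deviations of *arntl1a* were small, at 466 to 715 counts per library, and whether they exceed counting noise was not tested. Mutant library 1 also had the lowest total count, and WT library 1 the lowest scaling factor (0.902, against 0.969 to 1.07 in the others), and the part of these in the order was not tested. As the hour at which each pool was dissected is not given, a difference in time of day between pools cannot be told apart from any other difference between them.

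**Figure D2:**
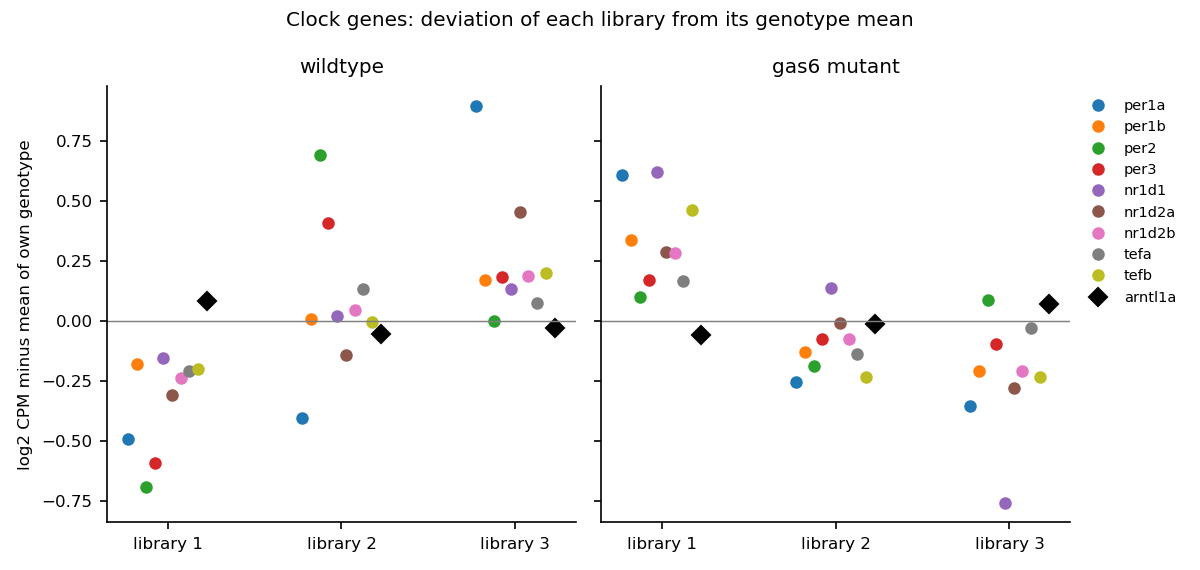
Deviation of each clock gene in each library from the mean of its own genotype (vertical axis, log2 CPM; 1 point per gene and library, *arntl1a* as black diamonds). The 9 other genes lie below 0 in WT library 1 and above 0 in mutant library 1, which their order within each genotype requires. *arntl1a* stays between -0.06 and 0.08 in all 6 libraries.

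When WT library 1 and mutant library 1 were both left out, a choice made after seeing the data, 5 of the 10 clock genes passed, with 2 libraries against 2, beside 6290 of 20646 genes in the same fit. These libraries were picked because the same clock genes stood apart in them, which by itself narrows their spread. Nothing is therefore read from this count or from the single genes of this fit. The 5 log2 fold changes were -0.76 (*per1b*), -1.52 (*per2*), -0.79 (*per3*), -0.49 (*tefa*) and 0.79 (*nr1d2a*). In the fit with all libraries *per3* and *tefa* did not pass. *per1a* (-0.29), *nr1d2b* (-0.22) and *tefb* (-0.063) changed sign without passing the test. Only *per2* was then more than 2-fold apart.

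The remaining clock genes were read from lists of 45 names, of which 37 genes were in the table and all were tested. Of these 37, 11 rose and 3 fell in mutants (37.8%, near the background of 33.3%), 5 of them by more than 2-fold (9.65% of all genes), and 21 did not overlap between genotypes (49.0% of all genes). Their median log2 fold change was 0.10. Of the 37, 25 were lowest among the WT libraries in library 1 (41.2% of all genes tested), 21 were highest among the mutants in library 1 (36.7%), and 18 were both (15.1%).

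The ROR and related receptors, which include the activators that compete with Nr1d proteins, had the highest median log2 fold change of the clock lists (1.04). Of 7 such genes 5 rose and none fell (33.3% of all genes tested were called), and in all 7 every mutant library was above every WT library (49.0% of all genes did not overlap in either direction). *rorb*, a receptor of the retina and sensory brain in mammals, was at 2.19, 8.57 and 3.68 CPM in WT and 29.7, 28.5 and 18.6 CPM in mutants, a log2 fold change of 2.396 (SE 0.352, adjusted p = 0.000377). *roraa* (1.08), *rorab* (1.21) and *rorcb* (1.04) also more than doubled, and *nr1d4b*, a further Rev-erb gene, rose by 0.57. The summed CPM of this list was 41.6 to 67.4 in WT and 112 to 140 in mutants, and so moved with genotype as the pineal, photoreceptor and lens sums did. The part of other tissues in these changes, and in that of *nr1d2a*, was not tested. Among the pineal genes, *aanat2*, the enzyme of rhythmic melatonin synthesis, was at 0.84 ± 0.33 CPM in WT and 0.86 ± 0.27 CPM in mutants (SD, n = 3 each). These rest on the low counts given above.

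**Figure D3:**
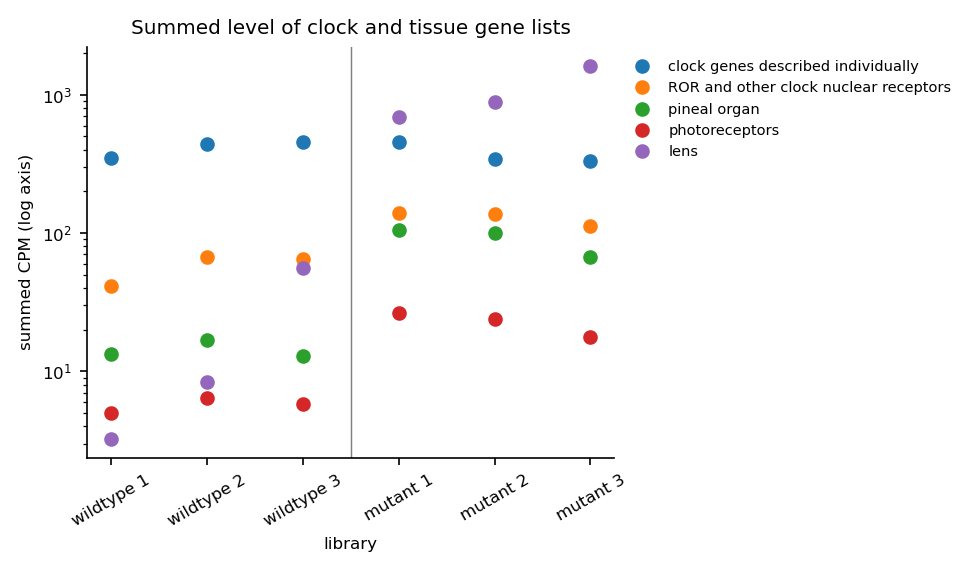
Summed CPM (log axis) of the clock genes described individually, the ROR and related receptors and 3 lists of other tissues, 1 point per list and library. The receptor, pineal, photoreceptor and lens sums are higher in every mutant library than in every WT library, while the sum of the 10 clock genes (333 to 459 CPM) overlaps between genotypes.

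Cryptochromes, which repress Clock and Bmal or act as light-dependent flavoproteins, moved both ways, with 1 of 8 higher and 3 lower in mutants. Of all genes tested, 16.7% were higher and 16.6% lower. *cry1a*, induced by light in zebrafish, was at 21.0, 42.3 and 36.5 CPM in WT and 27.5, 14.3 and 18.8 CPM in mutants. The ranges overlapped through WT library 1 and mutant library 1 (for *per3*, through WT library 1 alone). The log2 fold change was -0.73 (SE 0.253, adjusted p = 0.0430 by edgeR). It no longer passed in 4 of the 6 fits with 1 library left out, nor under DESeq2 (adjusted p = 0.147). *cry2b* fell by 0.81 on the log2 scale (adjusted p = 0.0040), with no overlap, and *cry3* by 0.37 (adjusted p = 0.0328), a call lost in 4 of the 6 fits. *cry2a* rose by 0.45 (adjusted p = 0.0177), a call lost in 2 of the 6.

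Of the 5 core activator genes besides *arntl1a*, 2 rose and none fell (16.7% and 16.6% of all genes tested). These were *arntl2* (0.52, adjusted p = 0.0087 by edgeR) and *clock* (0.47, adjusted p = 0.0459). The call of *clock* was lost in 5 of the 6 fits with 1 library left out. The other 3, *npas2* (-0.70, adjusted p = 0.0942), *arntl1b* (0.05) and *clock3* (0.13), did not pass the test. Among the PAR bZIP and Nfil3 factors, which act on D-box elements as activators and repressors, 3 of 8 rose and none fell (16.7% and 16.6% of all genes tested). These were *hlfa* (0.63, adjusted p = 0.0082), *hlfb* (0.65, adjusted p = 0.0406, lost in all 6 such fits) and *nfil3-6* (1.495, adjusted p = 0.0061), the last from 0.592, 1.01 and 1.12 CPM in WT to 3.85, 2.25 and 1.74 CPM in mutants. None of the 7 kinase and F-box genes of period protein turnover and neither of the 2 Dec repressor genes, *bhlhe40* (0.16) and *bhlhe41* (-0.26), passed (33.3% of all genes tested did).

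**Figure D4:**
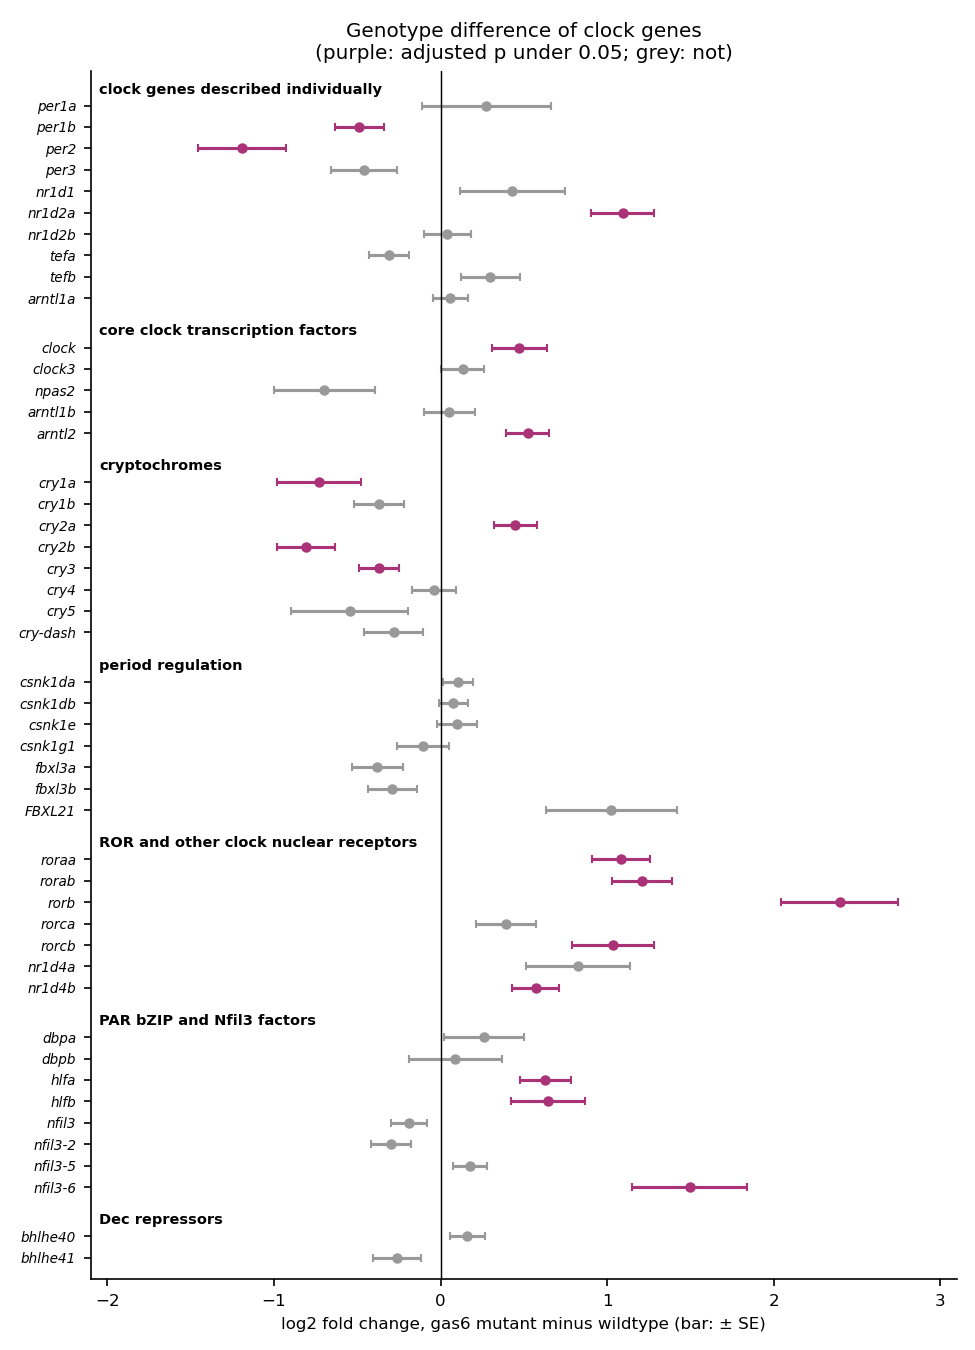
Log2 fold change (*gas6* mutant minus WT, horizontal axis) of the 10 clock genes and of 37 further clock genes by list, with points for the estimate, bars for ± SE and purple for an adjusted p under 0.05. Called genes lie on both sides of 0 among the individually described genes and the cryptochromes, and to the right of 0 in the core, receptor and PAR bZIP lists.

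Light-induced genes were read from a list of 12, which includes *per2* and *tefa* and, from the cryptochrome list, *cry1a*, *cry5* and *cry-dash*. In mutants 5 of them fell and 2 rose, beside 16.6% lower and 16.7% higher among all genes tested. Those that fell were *per2*, *cry1a*, *lonrf1l* (-0.69, adjusted p = 0.0474) and the DNA repair genes *ddb2* (-0.59, adjusted p = 0.0089) and *neil1* (-0.52, adjusted p = 0.0197). Those that rose were *gadd45aa* (0.62, adjusted p = 0.0358), a stress-responsive gene, and *polh* (0.35, adjusted p = 0.0387), a translesion DNA polymerase. Only *per2* and *ddb2* of the 7 passed in all 6 fits with 1 library left out.

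Among the WT libraries, library 2 was the highest for 11 of the 12 light-induced genes, all but *xpc*, against 31.3% of all genes tested. It was also the highest for 18 of the 37 further clock genes. These included all 5 core activator genes and 5 of the 7 receptors, but none of the 8 PAR bZIP and Nfil3 factors. The order was therefore not particular to the light list. This order was also noticed after the values were seen, and in it WT library 2 stood apart from WT library 3, which was the highest for *per1a*, *per1b*, *nr1d1*, *nr1d2a*, *nr1d2b* and *tefb*. *lonrf1l*, for example, was at 17.5, 35.7 and 28.1 CPM in WT and 22.4, 12.3 and 16.0 CPM in mutants, low in WT library 1 and high in mutant library 1 as *per3* and *cry1a* were.

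**Figure D5:**
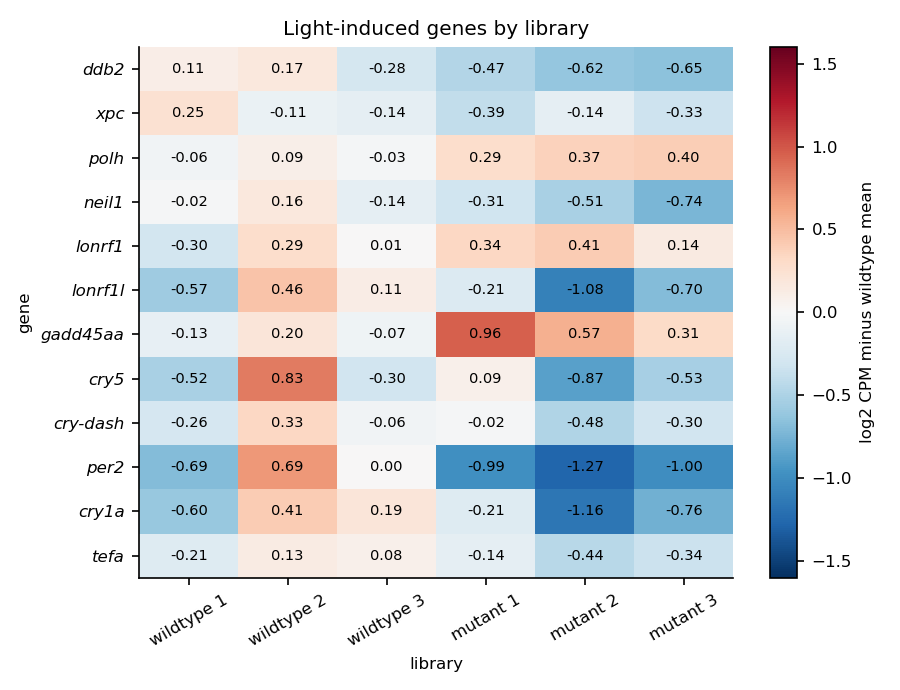
Log2 CPM minus the WT mean (colour scale and printed values) of 12 light-induced genes (rows) in the 6 libraries (columns). WT library 2 holds the highest WT value in 11 rows, and *per2* is at -0.99 or lower in every mutant library.

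The genes whose levels followed 2 of the clock genes most closely over the 6 libraries are given as a description, since libraries of one genotype share their source and the genes were picked from the 13415 (for *per1a*) or 13414 (for *per2*) others with a mean of at least 5 CPM. *per1a* had the largest SD among the WT libraries (0.78 on the log2 scale). The genes with the highest Pearson correlation of log2(CPM + 1) with it were *atxn7l3* (0.99), *rptor* (0.98), *ctdsp2* (0.96), *fto* (0.96) and *slc17a6b* (0.95). For *per2*, added after its values were seen, the most correlated genes were *txlng* (0.998), *wnt2bb* (0.99), *prkaa1* (0.98), *egfra* (0.98) and *lmnb2* (0.98), none of them on the clock lists. Among the WT libraries they spanned 1.17-fold (*lmnb2*) to 1.44-fold (*egfra*), against 2.61-fold for *per2*.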

How the data were processed

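The authors made stranded mRNA libraries (TruSeq) from pooled 48 hpf hindbrains and analysed the reads through the Dolphin web interface. Their processing notes name FastQC, RSEM 1.2.28 and DESeq2 and the builds GRCz10 and danRer7 without a role, and the aligner and annotation are not given in the sources used here. The deposited table holds 1 estimated count per gene and library for 23025 genes, not normalized, with whole numbers in all libraries for 45.6% of genes. Its lowest total per gene was 11, so genes below that had been left out before deposition. It also holds the authors' log2 fold change, fold change and adjusted p-value, and these 3 columns were not used.

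Libraries were grouped by genotype from their titles. Estimated counts were rounded and filtered with filterByExpr (minimum count 10, minimum total 15), which removed 2562 genes. TMM scaling was followed by the quasi-likelihood test of edgeR 4.0.16 (glmQLFit, glmQLFTest) in R 4.3.3 with genotype as the only factor, with Benjamini-Hochberg adjustment over 20463 genes. The fit left 4 residual degrees of freedom, with a biological coefficient of variation of 12.5% and, over all genes, a median SE of 0.154 on the log2 scale. SEs were derived from the F statistic. The 95% intervals used these SEs and the total degrees of freedom of the test (median 12.1), which include those shared across genes. Chi-square values per degree of freedom between libraries of a genotype were 6.99 to 25.9, so none was counted as a duplicate. The test was tested on simulated data with known changes.

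The clock genes and lists were chosen with earlier results of these data known. The named genes were all 10 clock genes, *gas6*, the 15 genes with the largest absolute log2 fold change among called genes of the other clock lists and the light list with a mean of at least 1 CPM, the 5 genes most correlated with the clock gene that varied most in WT, and the top 2 genes of each tissue list. *clock*, *cry2a*, *cry3*, *polh*, *aanat2*, *xpc* and the genes named as not called were added after their values were seen. In RefSeq (GRCz12tu) *cry2a*, *cry2b*, *cry3* and *clock* of the table are *cry3a*, *cry3b*, *cry2* and *clocka*. The list names *btrc*, *ciart*, *nfil3-3* and *nfil3-4* had no match and were not analysed here. The alternatives were RLE and upper quartile scaling, scaling without tissue and strongly changed genes, DESeq2 1.42.0, limma-voom (limma 3.58.1), no filter, a stricter filter, a replicate block, an adjusted p of 0.01 and each library left out.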

Additional observations from a re-analysis of the deposited data

How the results depend on the processing

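*per1b*, *per2* and *nr1d2a* kept their calls under RLE, upper quartile and restricted scaling, DESeq2, limma-voom, no filter, a stricter filter and the replicate block. With each library left out, the number of clock genes called was 2 to 5 and of those over 2-fold 0 to 2, the number of other clock genes was 9 to 14 and of light-induced genes 2 to 7. Of all genes in these fits, 4661 of 20729 (without mutant library 2) to 6919 of 20821 (without WT library 1) passed. At an adjusted p of 0.01 the same counts of clock, over 2-fold, other clock and light-induced genes were 2, 2, 9 and 2. This setting was added after seeing the data for the last 3 counts, as were all settings for the light-induced genes. Without WT library 1 and mutant library 1 together, a choice made after seeing the data, the counts were 5, 1, 18 and 9, and nothing is read from them. Signs turned for *per1a* (-0.061 without mutant library 1, -0.29 without both, range with 1 library out -0.061 to 0.85), *nr1d2b* (-0.08 without WT library 1, -0.11 without mutant library 1, -0.22 without both, range with 1 library out -0.11 to 0.14) and *tefb* (-0.063 without both), none past the threshold. The cause was not tested. Calls were lost under upper quartile scaling by *cry1a* (adjusted p = 0.0585), *cry3* (0.0532) and *lonrf1l* (0.0644), under DESeq2 by *cry1a* (0.147), *hlfb* (0.0991) and *polh* (0.0752), under limma-voom by *lonrf1l* (0.0529) and under the replicate block by *hlfb* (0.0641), *polh* (0.0707) and *lonrf1l* (0.0508).

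Same-numbered libraries of the genotypes did not deviate together (correlations of -0.004, -0.109 and 0.011), so the numbers were read as names only. The replicate block left 3 clock genes called, 2 of them over 2-fold, 13 other clock genes and 5 light-induced genes, beside 6359 of 20463 genes. At 20 to 62 counts per library, the intervals of *per1a* and *nr1d1* include changes of 2-fold.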
